A study of Mus musculus with 5 samples.

Results

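Ccl3, Ccl4, Ccl5, Ccl6 and Ccl9 are 5 secreted CC chemokines, and their unique molecular identifiers (UMIs, which count captured RNA molecules) were followed across leukocyte classes of the mouse kidney before, during and after ureteric obstruction. The members were taken as the 5 listed symbols among the 28692 gene identifiers (28625 symbols) of the droplet matrices, and all 5 had UMIs in each of the 4 droplet libraries. The mice were C57/BL6, aged 8 weeks, and underwent unilateral ureteric obstruction (UUO), a blockage of the tube that drains a single kidney, which in this model can be released again. One droplet library came from sham-operated mice (day 0), another from day 2 of the obstruction, another from day 7 of it, and the last, called reversed, from experimental day 14, when the obstruction had been released for 7 days. Each held kidney cells pooled from 3 mice, digested on ice and sorted as live with the dye DAPI, with no sort for leukocytes given in the labels. A further sample of 768 Smart-seq2 wells (full-length reads without UMIs) mixed all time points. There was 1 library per time point, so the spread between mice is unknown, time points could not be tested against each other, and every interval below is a 95% interval for counting error alone.

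Chemokines are small proteins that draw leukocytes along a gradient by binding receptors with 7 membrane spans. Ccl3 and Ccl4, the macrophage inflammatory proteins 1 alpha and beta, and Ccl5, also called RANTES, are inflammatory chemokines that attract monocytes, T cells and natural killer (NK) cells, and Ccl3 and Ccl5 act through the receptor Ccr1, among others. Ccl6 and Ccl9 are ligands of Ccr1 made mainly by myeloid cells, with no human gene of the same name. In obstructed kidneys, macrophages and T cells gather between the tubules, and chemokines are part of how they are recruited.

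The 5 genes lie together on chromosome 11 within 138906 bases (GRCm38, GENCODE annotation, all protein coding). Ccl5 (ENSMUSG00000035042) spans 83525778 to 83530518, Ccl9 (ENSMUSG00000019122) 83572919 to 83578636, Ccl6 (ENSMUSG00000018927) 83587882 to 83593087 and Ccl3 (ENSMUSG00000000982) 83647844 to 83649355, all on the minus strand. Ccl4 (ENSMUSG00000018930) spans 83662584 to 83664683 on the plus strand, next to Ccl3. The longest run shared exactly by 2 of their transcripts was 25 bases, between Ccl6 and Ccl9, and the other pairs shared runs of 9 to 13 bases. Ccl3 and Ccl4 were the closest pair over single phagocytes and Ccl6 and Ccl9 over class sums. The 250 bases upstream of each start site are therefore shown where RefSeq sequence (build GRCm38.p6) was at hand. This was so for Ccl3, Ccl6 and Ccl9, with motif matches in capitals. The Ccl6 and Ccl9 windows adjoin the gene spans given above. The Ccl3 window begins at 83649379, so the bases between it and the end of the span at 83649355 were not searched.
Ccl3, chr11:83649379-83649628, minus strand: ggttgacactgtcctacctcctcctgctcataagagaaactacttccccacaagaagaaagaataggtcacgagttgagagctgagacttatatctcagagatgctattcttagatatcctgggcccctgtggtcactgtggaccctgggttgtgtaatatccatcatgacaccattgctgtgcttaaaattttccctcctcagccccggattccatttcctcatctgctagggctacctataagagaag
Ccl6, chr11:83593088-83593337, minus strand: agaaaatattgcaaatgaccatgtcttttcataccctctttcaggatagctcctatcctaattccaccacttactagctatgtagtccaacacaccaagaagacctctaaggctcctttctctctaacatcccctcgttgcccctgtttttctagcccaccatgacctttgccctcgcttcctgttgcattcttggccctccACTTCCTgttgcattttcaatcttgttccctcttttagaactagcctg
Ccl9, chr11:83578637-83578886, minus strand: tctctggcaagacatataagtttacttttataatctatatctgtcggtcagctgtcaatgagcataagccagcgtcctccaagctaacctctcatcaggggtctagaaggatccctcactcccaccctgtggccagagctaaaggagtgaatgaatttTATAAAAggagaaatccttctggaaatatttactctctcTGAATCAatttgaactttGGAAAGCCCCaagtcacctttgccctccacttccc

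After the data had been seen, 6 motifs were searched in these windows: NF-kB (GGG, any 2 bases, then TTTCC), AP-1 (TGANTCA), ETS (AGGAAGT), C/EBP (TTGC, any 2 bases, then AA) and IRF (GAAA, any 2 bases, then GAAA) on both strands, and a TATA box (TATAAAA) on the gene's strand. The Ccl9 window held an NF-kB match 35 to 26 bases before the start, an AP-1 match 53 to 47 bases before it and a TATA match 92 to 86 bases before it. The Ccl6 window held 1 ETS match, 48 to 42 bases before the start, and the Ccl3 window held none of the 6. No matches overlapped. Among 32851 upstream windows of the same length, the NF-kB motif was present in 1.41%, AP-1 in 6.75%, ETS in 7.69%, C/EBP in 9.56%, IRF in 2.98% and TATA in 3.02%. These letters are descriptions of sequence and do not show binding. The longest run shared exactly by the Ccl6 and Ccl9 windows was 13 bases, against 8 for the other pairs.

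The droplet libraries held 5938, 2739, 4504 and 3695 deposited cells in the order sham, day 2, day 7 and reversed, with 18649637 to 30462683 UMIs each, and 3749, 2160, 4292 and 3145 cells were kept. Cells were classed by fixed marker genes, with the 5 chemokines left out. The mononuclear phagocytes, a class that covers macrophages, monocytes and dendritic cells, numbered 59, 511, 2300 and 603, and all 10 of their markers were detected in each library. T cells numbered 18, 98, 215 and 238, NK cells 3, 23, 42 and 6, and neutrophils 0, 13, 37 and 14. Cells with at least 3 markers of a further class, at 50% or more of the best class's share, were set aside. They made up 0.987%, 6.20%, 18.7% and 10.3% of kept cells. T and NK markers in the same cell were exempt from this rule, so T cells with NK markers were kept. The sham values of phagocytes therefore rest on few cells, and classes with fewer than 20 cells are given as counts of UMIs or cells only. Levels are CPM, the UMIs of a gene per 1000000 UMIs of the summed class, and because the droplet method reads 1 end of each molecule they were not divided by gene length. In such sums, fewer expressing cells and less RNA per cell cannot be told apart, so shares of cells are given beside some of them, mainly for macrophages and endothelium. Levels and ratios given without such shares do not separate them.

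From day 2 on, mononuclear phagocytes held most UMIs of Ccl3, Ccl4, Ccl6 and Ccl9, while the highest Ccl5 levels were those of NK and Cd8 T cells. At day 2, summed macrophages reached 519 CPM of Ccl3, 1070 of Ccl4, 1165 of Ccl6 and 791 of Ccl9, against 39.6 CPM of Ccl5. In NK cells of the same library Ccl5 stood at 18214 CPM, and Ccl4, at 1383 CPM, and Ccl3, at 355 CPM, were also present.

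**Figure D1:**
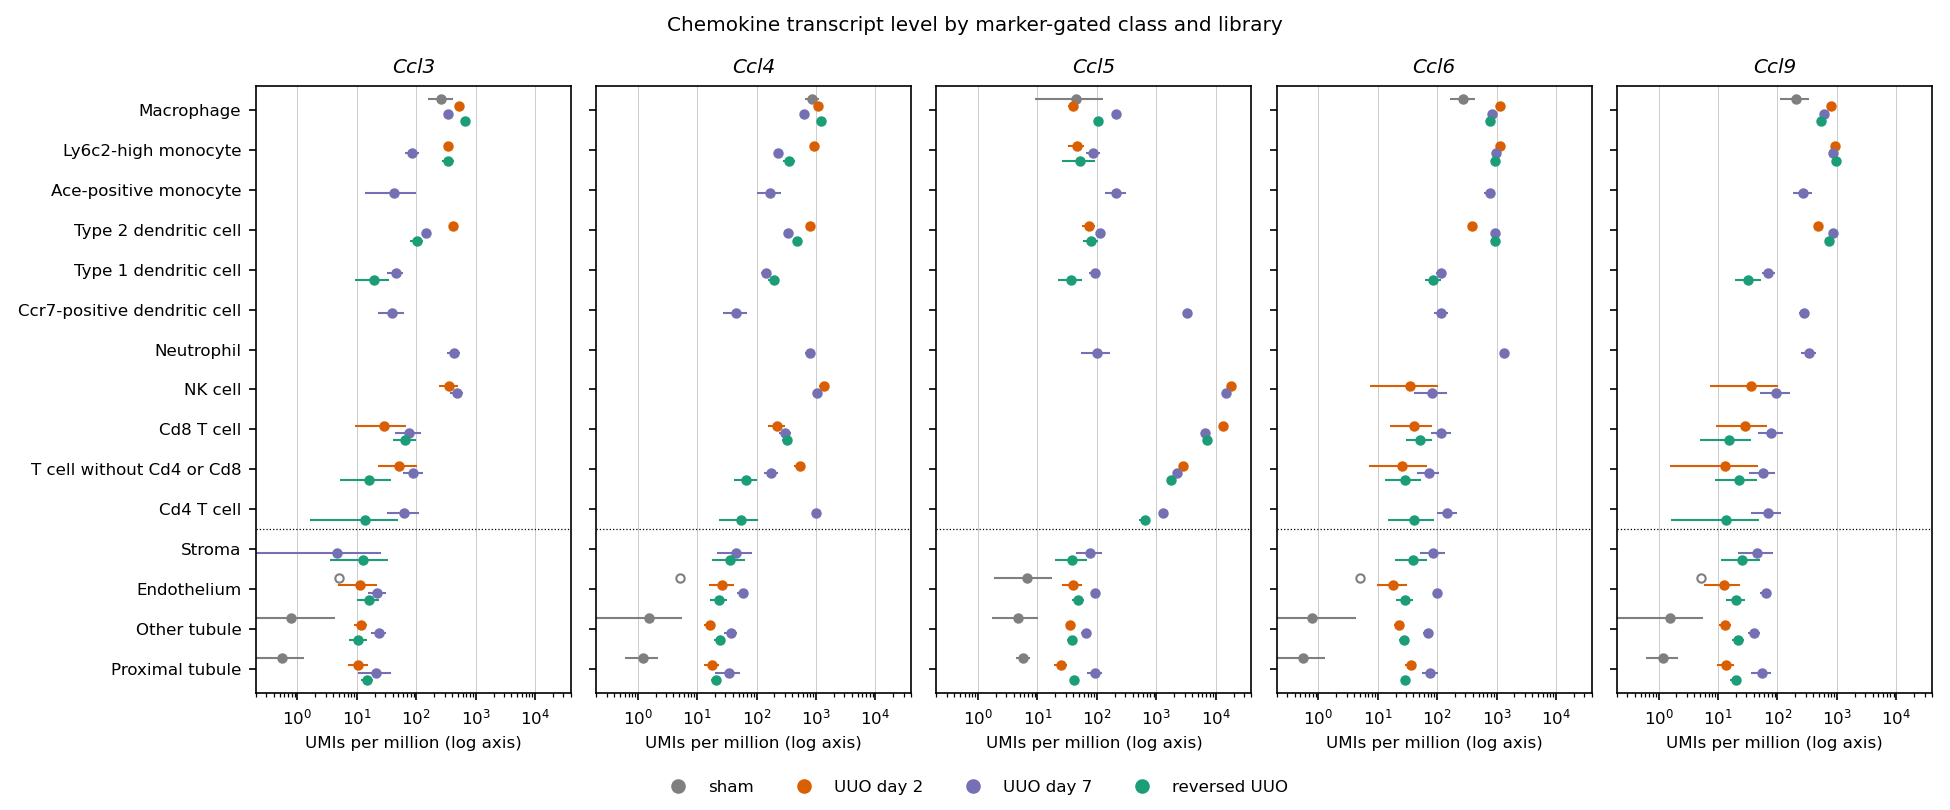
Level of each chemokine (CPM, log axis) by cell class, 1 panel per gene, with 1 colour per library and 95% Poisson intervals of the counts. Only classes with at least 20 cells are drawn, open circles mark the floor of 3 counts where no UMI was found, and the dotted line parts leukocytes from stroma, endothelium and tubule; Ccl5 is highest in NK and Cd8 T cells, while the other genes sit highest in phagocyte subclasses, NK cells or neutrophils.

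Ccl3 in macrophages was 263 CPM in sham (interval 156 to 415), 519 at day 2 (494 to 545), 339 at day 7 (328 to 350) and 668 after reversal (638 to 699). The level was thus high at day 2, lower at day 7 and highest after reversal, with no overlap between the intervals of those 3 libraries. In them, 24 of 245, 169 of 1690 and 40 of 403 macrophages held 64.6%, 74.7% and 73.0% of the Ccl3 UMIs. The intervals leave out this spread between cells. The share of macrophages with a Ccl3 UMI was 24.0%, 60.0%, 40.1% and 44.2%, and in endothelium it was 0%, 5.26%, 8.27% and 7.08%. Endothelium was taken as background throughout, without a check that it makes none of the 5 itself. Median depths were 2366, 11862, 5855 and 6225 UMIs in macrophages and 2360, 3653.5, 3314 and 3727 in endothelium, so cells were also thinned to 1000 UMIs, which gave 12%, 24.1%, 16.6% and 22.6% of macrophages and 0%, 0.658%, 2.01% and 2.06% of endothelial cells. Ccl3 was thus present in macrophages well above background at equal depth. Monocytes with high Ly6c2, the recruited inflammatory type, had 342 CPM of Ccl3 at day 2, 84.5 at day 7 and 344 after reversal. In the reversed library the 3 richest of the 33 cells held 54.1% of the 74 Ccl3 UMIs, and the 3 richest in Ccl4 held 62.7% of its 75 UMIs, so these levels rest on few cells. Type 2 dendritic cells had 408, 143 and 102 CPM in the same order and showed no higher level after reversal. There 1 of the 73 reversed cells held 28 of their 59 Ccl3 UMIs. Type 1 dendritic cells stayed low, with 44.8 CPM at day 7 and 19.2 after reversal. Neutrophils at day 7 had 430 CPM (328 to 553), within counting error of NK cells at 480 (370 to 612). In the reversed library, 14 neutrophils held 186 Ccl3 UMIs, from 5 cells with at most 58 UMIs in any of them.

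Ccl4 in macrophages was 862 CPM in sham (656 to 1111), 1070 at day 2, 634 at day 7 and 1193 after reversal. It followed the same order over the 3 later libraries as Ccl3 and exceeded it in each macrophage sum, by a ratio of 3.28 in sham, 2.06 at day 2, 1.87 at day 7 and 1.79 after reversal. Macrophages with a Ccl4 UMI made up 28.0%, 63.7%, 51.2% and 50.1%, against 0%, 11.2%, 19.0% and 10.0% of endothelial cells. Ly6c2-high monocytes had 936, 231 and 349 CPM at day 2, day 7 and after reversal, and type 2 dendritic cells 788, 343 and 488. NK cells had 1383 CPM at day 2 (1144 to 1657) and 1048 at day 7 (883 to 1236), which put them first at day 2; after reversal 6 NK cells held 2 UMIs. In sham phagocytes 1 cell held 35 of the 65 Ccl4 UMIs, 53.8%, so the sham level is largely that of a single cell. Single cells also weighed on T cells, where 1 of the cells with Cd4 held 125 of the 188 Ccl4 UMIs of that subclass at day 7. Cd8 T cells, the cytotoxic T cells, had 220, 302 and 322 CPM of Ccl4 and 28.9, 74.5 and 64.4 of Ccl3 at day 2, day 7 and after reversal. At day 2, 1 cell held 13 of their 38 Ccl4 UMIs. Their Ccl3 levels rest on 5, 17 and 21 UMIs at day 2, day 7 and after reversal. Of these, 1 cell held 3 of the 5 and 1 cell 12 of the 21. The ratio of Ccl4 to Ccl3 was 9.31, 5.28 and 4.69 in all T cells of those libraries, but 1 cell held 64 of the 121 Ccl4 UMIs at day 2 and 1 cell 125 of the 317 at day 7. In T cells without Cd4 or Cd8 the day 7 ratio was 2.00 (1.25 to 3.27), which overlaps the macrophage ratio. In reversed neutrophils the order was turned, with 46 UMIs of Ccl4 beside 186 of Ccl3.

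Ccl6 and Ccl9 were the most widely spread of the 5 among phagocytes. Ccl6 in macrophages was 277 CPM in sham (167 to 433), 1165 at day 2 (1127 to 1204), 827 at day 7 and 770 after reversal, and Ccl9 was 204 (112 to 343), 791, 605 and 552. Both were lowest in the 25 sham macrophages and highest at day 2. A Ccl6 UMI was present in 52.0%, 90.6%, 83.3% and 73.2% of macrophages and in 0%, 8.55%, 30.8% and 12.1% of endothelial cells; for Ccl9 the shares were 28.0%, 88.6%, 77.3% and 68.2%, against 0%, 5.92%, 22.1% and 8.55%. Thinned to 1000 UMIs, the macrophage shares were 16.0%, 44.5%, 39.4% and 31.0% for Ccl6 and 20%, 35.5%, 35.3% and 28.3% for Ccl9. Ly6c2-high monocytes carried 1155, 976 and 926 CPM of Ccl6 and 945, 866 and 954 CPM of Ccl9 at day 2, day 7 and after reversal, so Ccl9 was higher there than in macrophages in each of these libraries. Type 2 dendritic cells had 380 CPM of Ccl6 at day 2 and 941 and 950 in the later libraries, with 492, 856 and 746 of Ccl9. Type 1 dendritic cells were low in both, at 118 CPM of Ccl6 and 70.4 of Ccl9 at day 7. Those day 7 values lay close to the endothelial levels of 100 and 63.8 and are read as background. After reversal the type 1 dendritic cells had 86.4 CPM of Ccl6 (63.0 to 116), above the endothelial 28.6 (20.7 to 38.6), and 32.6 of Ccl9 (19.0 to 52.3), within counting error of the endothelial level (13.5 to 28.5).

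The 2 genes parted in some classes. In macrophages the ratio of Ccl6 to Ccl9 lay between 1.36 and 1.47 over the 4 libraries, the sham ratio from only 19 and 14 UMIs (0.645 to 2.93). Type 2 dendritic cells had a ratio of 0.773 (0.668 to 0.895) at day 2, 1.10 at day 7 and 1.27 after reversal. Neutrophils at day 7 had 1317 CPM of Ccl6 (1134 to 1522), first of all classes in that library, but 337 CPM of Ccl9, a ratio of 3.91 (2.83 to 5.51). Neutrophils of the other libraries leaned the same way, with 64 UMIs of Ccl6 and 11 of Ccl9 in 13 cells at day 2, and 122 and 8 in 14 cells after reversal. Monocytes with Ace, the patrolling type, had a ratio of 2.91 at day 7 (1.93 to 4.49), from 776 CPM of Ccl6 and 267 of Ccl9. Their UMIs of Ccl6 and Ccl9 were 35 and 10 in sham, 63 and 21 at day 2, and 24 and 17 after reversal, where the 2 genes lay closer together. In sham, 9 of 10 Ace monocytes held a Ccl6 UMI. Dendritic cells with Ccr7, which migrate to lymph nodes, showed the opposite, with 118 CPM of Ccl6 and 278 of Ccl9 at day 7 and a ratio of 0.423 (0.30 to 0.589), though that Ccl6 level is itself close to the endothelial one.

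Ccl5 was a gene of NK and Cd8 T cells. NK cells held 18214 CPM at day 2 (17316 to 19147) and 15207 at day 7 (14557 to 15878), while 3 sham cells held 90 UMIs and 6 reversed cells 220 UMIs. Cd8 T cells had 13341, 6674 and 7062 CPM at day 2, day 7 and after reversal, and 296 UMIs in 8 sham cells. A Ccl5 UMI was found in 86.0%, 93.2% and 90.1% of Cd8 T cells from day 2 on and in all 8 of sham, in 23 of 23 NK cells at day 2 and 41 of 42 at day 7, and, over the 4 libraries, in 1.88%, 15.1%, 30.1% and 18.6% of endothelial cells. T cells without Cd4 or Cd8 UMIs were intermediate at 2868, 2249 and 1759 CPM, and cells with Cd4 were lower at 1276 CPM at day 7 and 642 after reversal. Within the phagocytes, Ccr7 dendritic cells at day 7 stood apart with 3245 CPM (3079 to 3417), and 18 such cells after reversal held 458 UMIs, 130 of them in 1 cell. Macrophages had 43.8 (from 3 UMIs), 39.6, 210 and 104 CPM, beside 6.80, 39.1, 93.0 and 48.6 in endothelium. At day 2 the macrophage level was within counting error of the endothelial one and is read as background, and at day 7 and after reversal it lay above. In sham, 3 UMIs do not settle it.

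The source of each gene's UMIs followed from these levels and from how many cells of each class were caught. Phagocytes were 1.57%, 23.7%, 53.6% and 19.2% of kept cells. They held 86.8%, 91.2%, 84.6% and 71.9% of all Ccl6 UMIs and 77.9%, 92.9%, 84.9% and 75.2% of Ccl9. For Ccl3 they held 37.5% in sham and 85.0%, 83.0% and 76.5% later, and for Ccl4 29.3%, 82.1%, 78.9% and 84.8%. In sham the T cells, 18 in number, held 42.2% of Ccl3 and 41.0% of Ccl4 UMIs, of totals of 64 and 222. Ccl5 changed its main source: T cells held 71.4%, 54.0%, 20% and 58.6%, NK cells 14.5%, 29.9%, 16.5% and 4.32%, and phagocytes 0.969%, 6.60%, 35.2% and 16.4%. Cells with mixed markers held a further 24.4% of the Ccl5 UMIs at day 7. Ccr7 dendritic cells, 55 of the 2300 phagocytes at day 7, held 11.5% of all Ccl5 UMIs of that library.

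**Figure D2:**
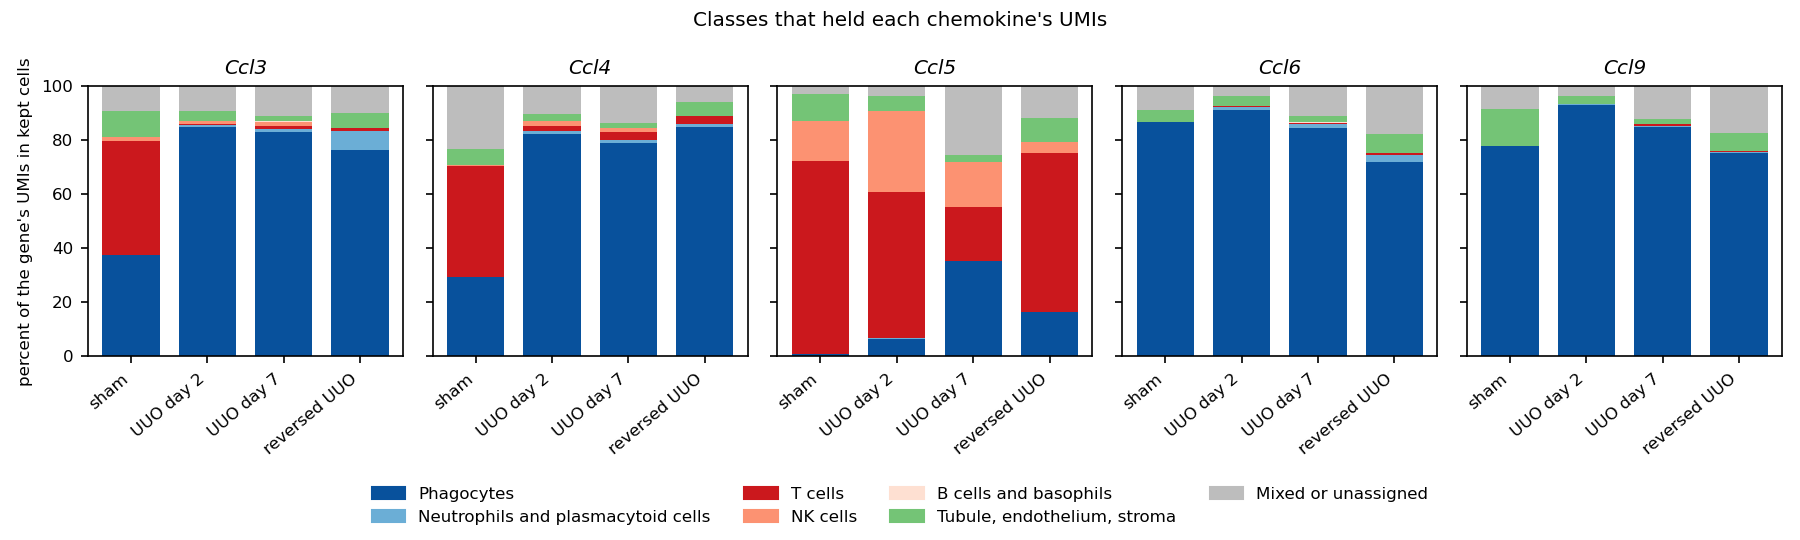
Percent of each chemokine's UMIs in kept cells (vertical axis, 0 to 100) that came from each group of classes (colours), for the 4 libraries in each panel. Phagocytes make up most of Ccl3, Ccl4, Ccl6 and Ccl9 after sham, while for Ccl5 T cells hold 54.0% at day 2 and 20% at day 7.

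In phagocytes as a whole, obstruction at day 2 against sham showed higher sums of all 5. Ccl3 was 120 CPM in sham and 432 at day 2, a log2 ratio of 1.83 (1.26 to 2.47). Ccl4 was 326 and 933 CPM (1.51, interval 1.16 to 1.89), Ccl6 592 and 1055 (0.83, 0.57 to 1.11) and Ccl9 371 and 741 (1.00, 0.67 to 1.35). Ccl5 was 30.1 and 61.2 CPM (1.00, −0.11 to 2.38), an interval that includes no difference. By a 2-fold rule Ccl3, Ccl4 and Ccl5 were past the limit, 3 of 5, all higher, but Ccl5 only just, from 6 sham UMIs and with that interval, and Ccl9 fell just short at a 2.00-fold difference. Of all genes with at least 30 summed UMIs, 28.1% of 8831 were past 2-fold either way, or 20.6% of those with at least 100 summed UMIs, and the median log2 ratio was 1.00 for the members and 0.17 for all genes. The sham sum had 59 cells of another subclass make-up, and in macrophages alone the log2 ratios were 0.98 for Ccl3, 0.31 for Ccl4, −0.14 for Ccl5, 2.07 for Ccl6 and 1.95 for Ccl9.

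**Figure D3:**
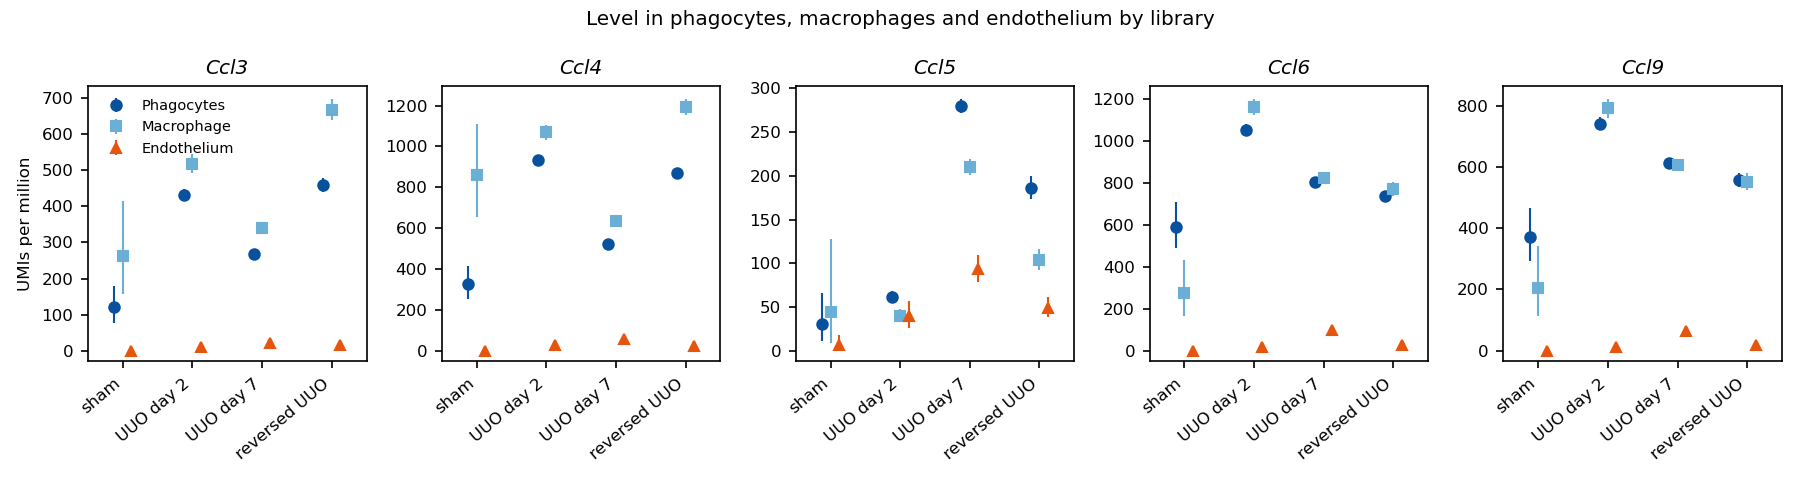
Level of each chemokine (CPM, linear axis from 0) by library in all phagocytes, in macrophages and in endothelium, with 95% Poisson intervals. Ccl3 and Ccl4 in macrophages are lower at day 7 than at day 2 and after reversal, and Ccl5 is highest at day 7. Ccl6 and Ccl9 are highest at day 2 in phagocytes and macrophages, but at day 7 in endothelium.

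At day 7 against day 2 the members split. Ccl5 in phagocytes was 280 CPM against 61.2, a log2 ratio of 2.18 (2.02 to 2.34). The other 4 were lower: Ccl3 at 268 CPM against 432 (−0.69, −0.76 to −0.61), Ccl4 at 523 against 933 (−0.83, −0.88 to −0.78), Ccl6 at 805 against 1055 (−0.39, −0.43 to −0.34) and Ccl9 at 612 against 741 (−0.28, −0.33 to −0.22). Thus 1 of 5 was past 2-fold, beside 10.6% of 11593 genes, and the medians were −0.39 for the members and 0.05 for all genes. Macrophages alone gave 2.38 for Ccl5, over a day 2 level read as background, and −0.61, −0.75, −0.49 and −0.39 for Ccl3, Ccl4, Ccl6 and Ccl9. Ly6c2-high monocytes showed larger differences in Ccl3 and Ccl4 (−2.01 and −2.02) and little in Ccl6 and Ccl9 (−0.24 and −0.13). Type 2 dendritic cells went their own way, with Ccl6 at 1.30 and Ccl9 at 0.80 beside −1.50 for Ccl3 and −1.20 for Ccl4. Another subclass was close in share of markers for 23 of 77 and 69 of 252 of these dendritic cells at day 2 and day 7. The same held for 22 of 118 and 32 of 104 Ly6c2-high monocytes.

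After reversal against day 7, phagocytes had more Ccl3 (459 against 268 CPM, log2 ratio 0.77, 0.70 to 0.85) and more Ccl4 (868 against 523, 0.73, 0.67 to 0.79). Ccl5 was lower at 186 against 280 CPM (−0.58, −0.69 to −0.48), and Ccl6 (737 against 805, −0.13) and Ccl9 (557 against 612, −0.14) were nearly level. None of the 5 was past 2-fold, beside 4.49% of 11791 genes, with medians of −0.13 and 0.02. In macrophages alone Ccl3 was 0.98 and Ccl4 0.91 higher on the log2 scale, and Ccl5 was −1.01. In Ly6c2-high monocytes Ccl3 stood at 2.01 and Ccl4 at 0.59, from reversed UMIs concentrated in few cells. Type 2 dendritic cells had −0.48 for Ccl3, with 28 of its 59 reversed UMIs in 1 cell, and 0.51 for Ccl4. In the reversed library 1 cell held 130 Ccl5 UMIs, 15.6% of those of all phagocytes, and without the 5 richest cells of each library, of 603 and 2300, the Ccl5 log2 ratio was −1.25, past 2-fold.

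Reversed against sham, the phagocyte log2 ratios were 1.92 for Ccl3 (1.35 to 2.56), 1.41 for Ccl4 (1.06 to 1.79), 2.59 for Ccl5 (1.49 to 3.96), 0.32 for Ccl6 (0.05 to 0.59) and 0.58 for Ccl9 (0.25 to 0.94). All 5 lay above the sham sums, and 3 of 5 were past 2-fold, Ccl5 again from 6 sham UMIs, beside 25.6% of 9025 genes (16.9% with at least 100 summed UMIs), with medians of 1.41 and 0.17. In macrophages alone the log2 ratios were 1.34 for Ccl3, 0.47 for Ccl4, 1.22 for Ccl5 from 3 sham UMIs, 1.47 for Ccl6 and 1.43 for Ccl9. This comparison shares its sham cells with the first and its reversed cells with the third.

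RNA of other leukocytes was found in phagocytes and endothelium alike. The summed level of 8 T cell markers in phagocytes was 5.01, 15.5, 69.4 and 55.7 CPM, and that of 8 NK markers was 0, 11.9, 25.3 and 8.25 CPM. In endothelium the same sums were 11.9, 22.3, 71.6 and 76.5 CPM and 0, 8.37, 18.9 and 3.99 CPM. The T cell sum of phagocytes lay below that of endothelium in each library, most closely at day 7. The NK sum of phagocytes lay above that of endothelium from day 2 on. In sham phagocytes, 7 of 8 T cell markers and all 8 NK markers were at 0. The sum of 9 neutrophil markers was 35.1, 313, 443 and 153 CPM in phagocytes and 27.2, 163, 234 and 73.2 in endothelium. These sums, like Ccl5, were low in sham, and all but the T cell sum of endothelium were highest at day 7. The sum of 8 B cell markers did not follow that order. It was 80.2, 31.1, 62.9 and 50.2 CPM in phagocytes and 485, 528, 340 and 448 in endothelium. A split at 5 Ccl5 UMIs per cell, chosen after seeing the data and leaving out Ccr7 dendritic cells, set apart 6, 95 and 11 phagocytes at day 2, day 7 and after reversal. These cells held 28.5%, 50.7% and 33.9% of the Ccl5 UMIs of those phagocytes. A T or NK marker was detected in 2 of 6, 52 of 95 and 7 of 11 of them, against 122 of 501, 962 of 2150 and 198 of 574 of the others. At least 2 such markers were detected in 0, 24 and 0 of them, against 17, 266 and 44 of the others. Median depths were 12869, 7983 and 5891 UMIs in the cells rich in Ccl5 and 9669, 6219.5 and 6544 in the others. The part of lymphocyte RNA in the Ccl5 level of phagocytes was not tested.

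In T cells Ccl5 went the other way. At day 7 it was 3143 CPM against 7126 at day 2, a log2 ratio of −1.18 (−1.26 to −1.10), and after reversal 3471 CPM, a ratio of 0.14 to day 7 (0.07 to 0.22). Within Cd8 T cells the ratios were −1.0 (−1.09 to −0.91) and 0.08, and in NK cells Ccl5 at day 7 against day 2 stood at −0.26 (−0.36 to −0.16). The other members gave 1.16 for Ccl3, 0.36 for Ccl4, 1.57 for Ccl6 and 1.71 for Ccl9 at day 7 against day 2, so 4 of 5 were past 2-fold, 3 of them higher, beside 10.2% of 4795 genes. Reversed against day 7 they gave −1.14, −1.33, −1.39 and −2.02, again 4 of 5, all lower, beside 4.63% of 6111 genes. The members' medians were 1.16 and −1.33, against 0.20 and −0.02 for all genes. For Ccl4 the latter ratio rested on few cells: without the 5 richest cells of each library it was −0.12. Left out likewise, from 215 and 98 cells, Ccl3 at day 7 against day 2 was 2.63. The T cell Ccl3 ratios rest on 13 UMIs at day 2, 60 at day 7 and 29 after reversal, so the 2.63 uses only what is left of the 13. Ccl6 and Ccl9 had 14 and 8 UMIs in T cells at day 2. Ccl6 in T cells was 35.8, 108 and 40.7 CPM from day 2 on, with 0 UMIs in 18 sham cells, and in endothelium 18.1, 100 and 28.6 CPM, close to each other at day 7. Endothelium, the comparison class here, gave day 7 to day 2 ratios of 0.93, 1.11, 1.23, 2.40 and 2.26 for Ccl3, Ccl4, Ccl5, Ccl6 and Ccl9. Summed over 10 markers, myeloid RNA from day 2 on was 489, 1526 and 854 CPM in T cells, with 5 UMIs in the sham cells and 6 of 10 markers at 0 there, and 278, 1317 and 579 CPM in endothelium, which moved in the same order. The counting intervals of Ccl6 and Ccl9 in T cells overlapped those of endothelium from day 2 on, and the part of free RNA in the T cell ratios was not tested.

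Single cells showed how unevenly the genes were used. The tenth of phagocytes with the most UMIs of a gene held 87.5%, 70.8%, 77.0% and 78.3% of all Ccl3 UMIs and 93.8%, 68.4%, 76.6% and 79.1% of Ccl4. For Ccl9 the shares were 59.5%, 40.6%, 46.6% and 57.4%, and for Ccl6 55.1%, 56.6%, 56.8% and 67.7%. Ccl3 and Ccl4 were thus concentrated in fewer phagocytes than Ccl9. In the same cells Ccl3 and Ccl4 went together, with Pearson r of 0.60, 0.67, 0.61 and 0.62 over the 59, 511, 2300 and 603 phagocytes, and Ccl6 went with Ccl9 at 0.28, 0.57, 0.48 and 0.56. By subclass, Ccl3 with Ccl4 gave 0.56, 0.68, 0.66 and 0.67 in macrophages and 0.85, 0.30 and 0.30 in type 2 dendritic cells from day 2 on. In Ly6c2-high monocytes r was 0.51 at day 2, −0.08 at day 7 and 0.18 after reversal (118, 104 and 33 cells), so the pair did not go together there at day 7. Pairs across these groups were near 0, such as Ccl4 with Ccl6 at −0.15, −0.02, −0.02 and −0.03. Cells of 1 library share its pool of free RNA, its mice and its range of depth, so these r values are descriptions. At 1000 UMIs per cell, Ccl4 was found in 50%, 59.2%, 53.1% and 57.3% of phagocytes with Ccl3 and in 3.77%, 16.7%, 15.4% and 14.6% of those without. Ccl9 was found in 33.3%, 52.5%, 44.3% and 42.1% of phagocytes with Ccl6 and in 15.8%, 33.3%, 30.9% and 23.1% of those without.

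**Figure D4:**
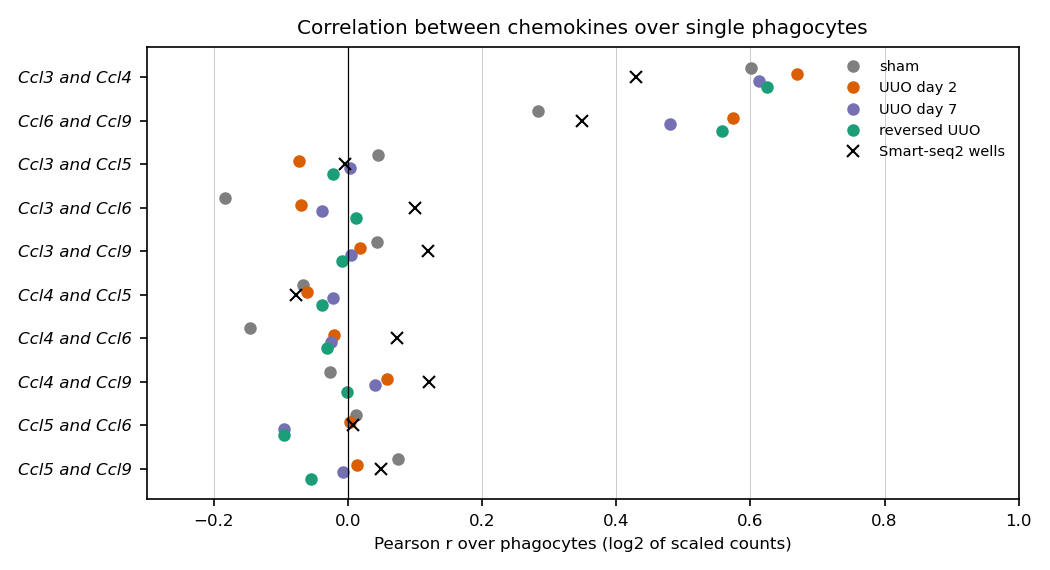
Pearson r over phagocytes (horizontal axis) for the 10 pairs of chemokines, with 1 point per droplet library and crosses for Smart-seq2 phagocyte wells. Ccl3 with Ccl4 and Ccl6 with Ccl9 stand above the other pairs, at 0.67 and 0.57 at day 2.

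After this had been seen, macrophages thinned to 1000 UMIs were split by whether they held a Ccl3 or Ccl4 UMI, giving 101 cells with and 144 without at day 2, 503 and 1187 at day 7, and 149 and 254 after reversal. A list of immediate-early and dissociation genes, most of them switched on within minutes of a stimulus and also during tissue digestion, and 2 of them heat-shock genes (Hspa1a and Hspa1b), was compared first. At 2-fold, 4 of 8 measured genes were higher at day 2, Hspa1a among them at 1.54, 9 of 12 at day 7 and 9 of 10 after reversal, beside 1.84%, 1.51% and 3.14% of all genes measured. Neither heat-shock gene was among the 9 at day 7, where Hspa1a was 350 CPM with and 184 without, short of 2-fold. Medians of the list were 1.05, 1.38 and 1.5, against −0.02, −0.01 and −0.04 for all genes. At day 7 Fos, a subunit of AP-1, was 1129 CPM with and 296 without (log2 ratio 1.93), and Egr1, a zinc finger factor of the same early response, was 254 and 55.6 (2.17). The list of NF-kB targets and activation genes had 1 of 4, 9 of 12 and 6 of 7 genes higher at 2-fold, with medians of 0.67, 1.32 and 1.5. Cxcl2, a neutrophil-attracting chemokine, was 602 against 117 CPM at day 7 (2.35) and 1215 against 244 after reversal (2.31), and Il1b, the cytokine interleukin 1 beta, was 863 against 265 at day 7 (1.70). At day 2 these genes fell short of 2-fold, with 0.76 for Cxcl2, 0.58 for Il1b, 0.43 for Fos and 0.97 for Egr1, and the intervals of the last 3 included 0. Of the other members, 2 could be measured at day 2 and 3 in the later libraries, and none was past 2-fold: at day 7 Ccl6 was 640 against 809 CPM (−0.34), Ccl9 525 against 546 (−0.06) and Ccl5 185 against 240 (−0.37). Median full depths of the cells with and without were 11168 and 12070 UMIs at day 2, 6000 and 5778 at day 7, and 6790 and 5893 after reversal. The part of the digestion in these levels was not tested.

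**Figure D5:**
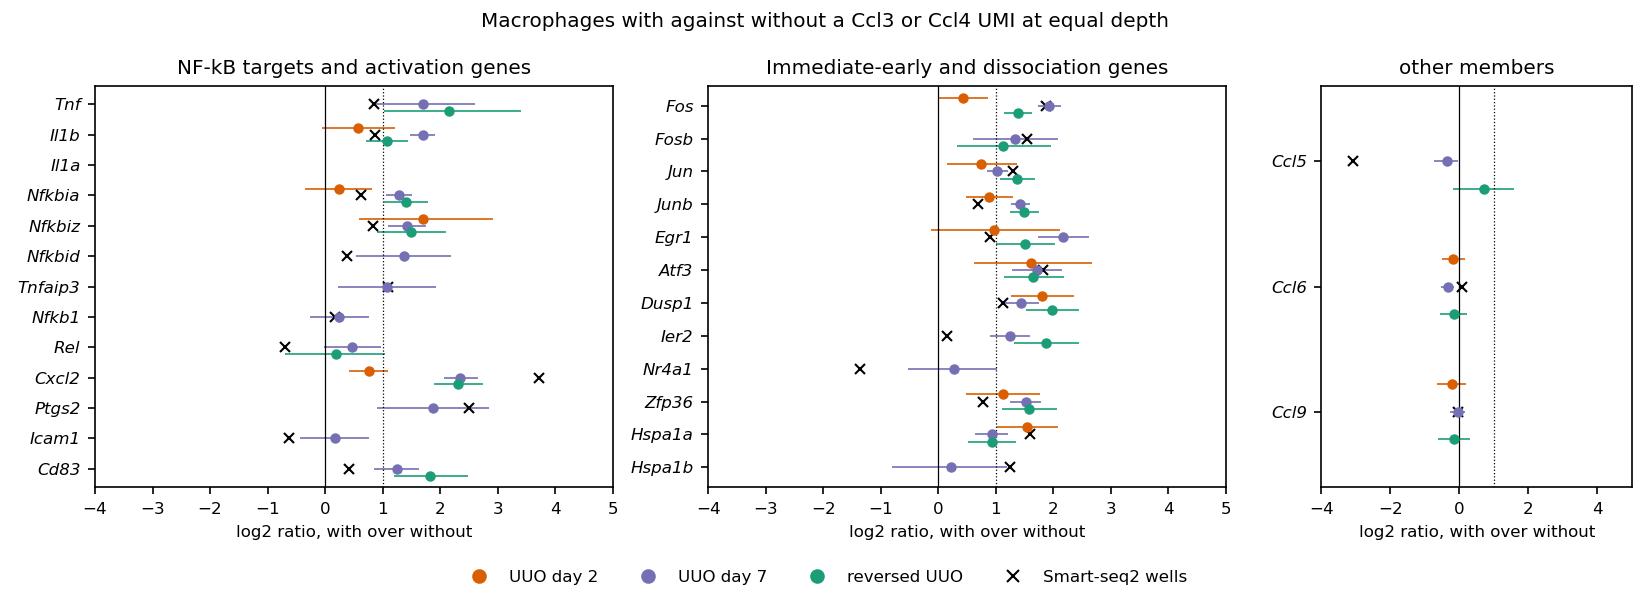
Log2 ratio of CPM (horizontal axis) of macrophages with over macrophages without a Ccl3 or Ccl4 UMI, with panels for the NF-kB list, the immediate-early and dissociation list and the other chemokine members, a colour for each of 3 libraries, 95% intervals, and crosses for the same split of Smart-seq2 wells. The dotted line is 2-fold; 9 of 12 measured genes of each of the first 2 panels are past it at day 7, and none of the 3 other members is.

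The same lists were also compared between libraries. In all phagocytes, reversed against day 7, 12 of 13 NF-kB genes and 12 of 12 immediate-early and dissociation genes had ratios above 0, of which 3 and 4 were higher at 2-fold, beside 3.85% of all genes. Their medians were 0.44 and 0.75, against 0.02 for all genes. Fos was 487 CPM at day 7 and 1108 after reversal (1.18), and Egr1 (1.39), Atf3 (1.35) and Fosb (1.34), all early transcription factors, were past 2-fold. Il1a (1.65), Cxcl2 (1.18) and Tnf (1.04), inflammatory cytokine and chemokine genes, were past it in the NF-kB list. At day 7 against day 2, the immediate-early and dissociation list had 1 gene higher and 3 lower, with a median of −0.37, and the NF-kB list 2 higher and 1 lower, with a median of 0.05, beside 10.6% of all genes and their median of 0.05. At day 2 against sham, 5 of 13 NF-kB genes were higher at 2-fold and 1 lower, and 3 of 12 immediate-early and dissociation genes were higher, beside 19.5% of all genes higher at 2-fold. After reversal against sham, 8 of 13 and 7 of 12 were higher, beside 20.4% of all genes.

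The Smart-seq2 wells gave another view of the same genes by a different chemistry. Of 768 wells 760 had at least 500 genes, and 705 were phagocytes by the same markers, with no T or NK cell wells. The share of phagocyte wells with a read was 90.6% for Ccl6, 87.1% for Ccl9, 64.1% for Ccl4, 63.7% for Ccl3 and 18.4% for Ccl5. Ccl3 with Ccl4 (r 0.43) and Ccl6 with Ccl9 (0.35) were the closest pairs, and the other pairs lay between −0.08 and 0.12. Thinned to 20000 reads, 216 wells held a Ccl3 or Ccl4 read and 222 did not, and 267 shallower wells were left out. At 2-fold, 7 of 12 immediate-early and dissociation genes were higher, with Hspa1a (1.60) and Hspa1b (1.24) among them, and 1 was lower, Nr4a1 at −1.36, and 3 of 12 NF-kB genes were higher, Cxcl2 at 3.71, Ptgs2 at 2.49 and Tnfaip3 at 1.10. This stood beside 13.3% of 9786 genes higher at 2-fold and an all-gene median of 0.06, with list medians of 1.18 and 0.73. Ccl6 (0.08) and Ccl9 (−0.03) were level, and Ccl5 was lower at 8.56 against 80.2 CPM of reads (−3.09). Before thinning, 1 of the 705 phagocyte wells held 1880 of their 9559 Ccl5 reads. The shares of wells with a Ccl5 read lay closer, at 18.7% with Ccl3 and 18.0% without, and 16.8% with Ccl4 and 21.3% without. Plates are not tied to time points in the labels used here, so time and well type cannot be told apart in the split by Ccl3 or Ccl4.

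Some receptors for these ligands were measured in the same phagocytes. Ccr1, the receptor shared by Ccl3, Ccl5, Ccl6 and Ccl9, was 35.1, 179, 80.2 and 47.5 CPM over the 4 libraries, highest at day 2 like Ccl6 and Ccl9. Ccrl2, an atypical receptor, was 45.1, 87.3, 80.4 and 136 CPM. Ccr3, Gpr75, Ackr1 and Ackr2 were near 0 there, with too few UMIs for ratios. At 2-fold Ccr1 was higher at day 2 against sham and lower at day 7 against day 2, neither gene passed after reversal against day 7, and Ccrl2 was higher after reversal against sham. Neutrophils at day 7 had 430 CPM of Ccr1 and 773 of Ccrl2. Ccrl2 in endothelium was 298, 92.1, 132 and 185 CPM, above its phagocyte level in sham, at day 7 and after reversal. At day 2 it was within counting error of the phagocyte level (79.7 to 95.4). Of the other CC chemokines on the list, 6 of 8 measured in phagocytes were higher at 2-fold at day 2 against sham and 6 of 8 after reversal against sham, beside 19.5% and 20.4% of all genes. At day 7 against day 2, 1 of 9 was higher and 2 lower, beside 10.6%, and none of 9 passed after reversal against day 7, beside 4.49%.

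The genes most like each member were taken by Pearson r of log2(CPM + 1) over 36 class-by-library sums with at least 30 cells, among 7696 genes. Sums of 1 library share their depth and their free RNA, so r is a description. Ccl6 was nearest to Wfdc17 (0.97), Lyz2, Clec4n, Il1b and Fcgr3 (0.96 each), and Ccl9 to Clec4n (0.97), Wfdc17 and Fcgr3 (0.96), Clec4a2 (0.95) and Lyz2 (0.94), with 4 genes in both sets. Ccl3 was nearest to Fcer1g (0.92), Plek, Cx3cr1 and Clec4n (0.91) and Tyrobp (0.90), and Ccl4 to Myo1f (0.93), Laptm5 (0.92), Ccr2 (0.91) and Fam49b (0.90), among others. Ccl5 stood apart, nearest to Ctsw (0.93), Nkg7 and Stat4 (0.92), Cd2 (0.90) and Gzmb (0.89), genes of T and NK cells. Among the members, Ccl6 with Ccl9 reached 0.97 and Ccl3 with Ccl4 0.93, while Ccl5 with the others lay between 0.15 and 0.51. In T cells at day 7 against day 2, when Ccl5 stood at −1.18, 3 of 11 cytotoxic genes had ratios above 0 and 8 below, with a median of −0.16 against 0.20 for all genes. Past 2-fold, Gzmk was higher at 1.27 and Gzma lower at −2.80, beside 10.2% of all genes, and Nkg7, a granule protein, was −0.03. Reversed against day 7, 6 of 11 were above 0 and 5 below, with a median of 0.04, and Gzmb was the 1 gene past the limit, at −2.27, beside 4.63% of all genes. Gzma, Prf1 and Eomes of that list are also NK markers of the gate.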

How the data were processed

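As deposited, the 4 droplet matrices hold raw counts of UMIs and the Smart-seq2 table holds raw counts of reads, both whole numbers with unequal totals. Libraries followed the 10x 3′ V2 workflow, per the labels' protocols, and Cell Ranger, STAR, GRCm38 and mm10 are named in the submitters' processing notes; versions, counting settings and cell calling are not given in the sources used here. For the Smart-seq2 wells the labels repeat the text on droplets. The members and lists were chosen with earlier results of these data known.

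Droplet cells needed 200 genes or more and no more than 50% mitochondrial UMIs, and the highest Scrublet doublet scores were removed at 0.8% per 1000 deposited cells (scanpy 1.11.5), which took out 184, 47, 155 and 91 cells. Between 16 and 39 barcodes were shared by 2 libraries. A class needed UMIs of at least 3 of its markers (2 for subclasses). A cell was called mixed where another class had at least 3 markers and at least 50% of the best class's share of markers. T with NK cells, and the tubule classes with each other, were exempt. The 8 NK markers summed to 525, 269 and 167 CPM in T cells from day 2 on. The 8 T cell markers summed to 863 and 819 CPM in NK cells at day 2 and day 7. The depth of the kept cells was a median of 2663, 6546.5, 5646 and 4875 UMIs. UMIs were summed per class and library as CPM; log2 ratios use a pseudocount of 1 CPM, which understates differences of low genes, and genes needed 30 summed UMIs. Poisson, Clopper-Pearson and conditional binomial intervals are at 95%, and a count of 0 has a floor of 3 counts per library. Named are the members, the 5 genes most like each, and members of the fixed lists, with examples by the largest ratio; Il1b, Egr1, Fos, Nkg7 and the receptors by class were named after their values had been seen. The upstream motifs, the splits by Ccl3, Ccl4 or Ccl5 and the ratios between members were also chosen after seeing the data. Alternatives covered filters, gates, scaling (TMM factors from edgeR 4.0.16 in R 4.3.3), pseudocount, thinning and background; 2 of them, macrophages alone and leaving out the 5 richest cells, were added after seeing the data. The scripts ran on scipy 1.17.1, numpy 2.4.6 and pandas 2.3.3 under Python 3.11.15, with figures from matplotlib 3.10.9. Some results of the receptor list and of the genes most alike are not reported here. The counting code was tested on simulated data.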

Additional observations from a re-analysis of the deposited data

Results flagged for a closer look

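Ccl5 at day 7 against day 2 had opposite directions in phagocytes and T cells: its log2 ratio was 2.18 in phagocytes and −1.18 in T cells, which differ by 3.36. Every class sum of each kind came from the same 2 libraries, and the difference was not tested.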

How the results depend on the processing

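No paired analysis was possible because each time point has 1 library and the labels give no shared replicate numbers. Of 410 alternative values of single-gene ratios, 311 stayed within counting error of the reported value and 98 moved beyond it. The 1 that turned sign was Ccl5 in phagocytes at day 2 against sham, at −0.14 in macrophages alone. Of 290 alternative values of class levels, 104 moved beyond counting error. Of the 202 alternative values that belong to ratios past 2-fold in the main setting, 201 kept their direction. Members' median ratios moved as follows. At day 2 against sham the median was 3.98 without the 5 richest cells, and the number past 2-fold ranged from 2 to 5 over the alternatives, under which the share of all genes was mostly not computed. At day 7 against day 2 it was −0.44 without doublet removal, −0.28 with a Ptprc UMI required, −0.43 with TMM scaling, −0.59 with cells weighted equally, −0.46 thinned, −0.52 with the tubule and endothelial level subtracted, −0.55 without the deepest 5% of cells, −0.49 in macrophages alone and −0.29 without the 5 richest cells. Reversed against day 7 it was −0.19 thinned, −0.017 with that level subtracted, −0.25 without the deepest cells and −0.28 without the 5 richest. Reversed against sham it was 1.02 with equal weights, 0.95 thinned and 3.97 without the 5 richest. In T cells, reversed against day 7, it was −0.93 with mixed-marker cells kept. Causes were not tested. TMM scaling shifted phagocyte ratios by at most 0.11 and T cell ratios at day 7 against day 2 by −0.20. Leaving out 5 cells takes a larger part of the 59 sham phagocytes than of the 511 or 603 they were set against. The higher ratios to sham cannot be told apart from that construction. Depth limited sham most, with 59 phagocytes.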
